A study of Mus musculus with 33 samples.

Results

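Tff3, Scara5, Cela1 and Car3 are 4 genes of mouse liver grouped here as genes whose mRNA was strongly lower on a fenofibrate diet, on a fish oil diet or on both. They were chosen from the measured differences between the diets of these same arrays, so those differences are described below with no test. The 4 genes have 8 probe sets on the array, and 7 of these passed the filter on dim signals. They stand among 9005 genes that could be compared. The rule gave no size for "strongly", so no gene lies just inside or just outside a limit.

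The livers came from male C57BL/6J mice, 17 weeks old, after 2 weeks on 1 of 3 diets. The fenofibrate group (12 mice) ate a diet whose added fat was sunflower oil at 7% of energy, with 0.03% fenofibrate by weight. The fish oil group (11 mice) ate the same base diet with fish oil at 7% of energy, an oil with 23.1% EPA and 21.1% DHA. The control group (10 mice) ate it with sunflower oil at 7% of energy, an oil with 81.3% oleic acid. Fenofibrate-fed mice were thus set against mice on the same oil, while fish oil and control mice differed in the oil itself. Mice were kept 2 per cage and fasted from 7:00 to 13:00 before the liver was taken.

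Fenofibrate is a drug that activates PPARα, a nuclear receptor that raises genes of fatty acid breakdown in hepatocytes, and the long-chain n-3 fatty acids of fish oil are natural ligands of the same receptor. Tff3, trefoil factor 3, is a small secreted peptide known from mucus-making epithelia, where it takes part in the repair of the surface. Scara5 is a class A scavenger receptor of the cell surface that is known to bind ferritin, the iron storage protein. Cela1 is a chymotrypsin-like elastase, a serine protease of the family that the pancreas secretes. Car3, carbonic anhydrase III, is a cytosolic enzyme that hydrates carbon dioxide and is abundant in liver, skeletal muscle and fat. The name of the group, secreted and surface genes, therefore fits Tff3, Cela1 and Scara5 by what is known of the proteins, and not Car3. Only Tff3 was far lower on both diets. Scara5, Cela1 and Car3 were lower on fenofibrate, while on fish oil their means lay 0.53 below, 0.02 below and 0.24 above the control mean on the log2 scale.

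The bases before the start of Cela1 are shown because this gene of a pancreatic protease family was read at a high level in liver, and its start region gives the sequence context of that level. It is the RefSeq sequence of GRCm38.p6, minus strand, chr15:100687921-100688170, the 250 bases before the start, written 5′ to 3′.
Cela1: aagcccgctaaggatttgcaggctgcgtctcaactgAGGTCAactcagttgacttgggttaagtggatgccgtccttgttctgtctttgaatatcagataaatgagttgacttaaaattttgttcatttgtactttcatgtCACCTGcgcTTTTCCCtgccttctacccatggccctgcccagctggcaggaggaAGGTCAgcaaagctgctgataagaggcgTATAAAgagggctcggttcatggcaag
The capitals mark motifs that were searched for on both strands. TATAAA, the TATA box core, lies 27 to 22 bases before the start and is present in 12.4% of 32851 mouse start regions of that length. AGGTCA, the half-site that nuclear receptors bind, is there 2 times, 214 to 209 and 55 to 50 bases before the start, and 14% of the start regions hold it. CACCTG, an E-box core, lies 109 to 104 bases before the start, a motif that 17.2% of the start regions hold. TTTTCCC follows it 100 to 94 bases before the start and is in 6.49% of the regions. The motifs were picked after the sequence had been read, and a match describes the letters and not a bound site. The start regions of Tff3, Scara5 and Car3 were not used here.

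The values are log2 expression levels, on which 1 unit is a factor of 2, and to pass the filter 10 or more of the 33 arrays had to reach a level of 4. Each mouse gave 1 array. Array medians lay between 2.90 and 2.97, a closeness that the authors' normalization sets. Control replicates 1, 2 and 9 stood apart from the other control arrays in gene groups given below. Values without them are given for many, but not all, of the counts and calls that leaving them out moved. Of 15 hepatocyte markers, 10 fell and 2 rose on fenofibrate, while 9 fell and 0 rose without those 3 controls. On fish oil 4 fell and 1 rose, while 3 fell and 1 rose without them. Over all 9005 genes, 18.9% fell on fenofibrate and 7.0% on fish oil. The part of these controls and markers in the results was not tested. The median of the list lay 0.25 to 0.07 below the control mean on the fenofibrate arrays, while control arrays lay between -0.06 and 0.04. The log2 summed level of these bright genes was 17.91 to 18.0 on fenofibrate, 17.96 to 18.04 on fish oil and 17.97 to 18.08 on control. In whole liver, fewer cells of a type and less RNA per cell cannot be told apart.

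Tff3, the trefoil peptide, was lower on both diets. Its level was lowest at 3.12, median 4.34 and highest at 6.17 on fenofibrate. On fish oil it was lowest at 2.91, median 4.22 and highest at 8.55. On the control diet it was lowest at 4.30, median 7.80 and highest at 11.35. The groups overlapped through few arrays, and over all genes, 1.83% were lower on fenofibrate than on control, and 0.677% on fish oil, without overlap. Of 10 controls, 9 lay above every fenofibrate array, and the remaining one was control replicate 9, at 4.30, with the next control at 6.95. On fish oil a single array, replicate 9 at 8.55, reached the level of the other 9 controls, and the next lay at 6.06. The mean was 4.31 ± 0.83 on fenofibrate (SD, n = 12) and 8.24 ± 2.05 on control (SD, n = 10), a difference of -3.94 ± 0.64 (SE), or 15.3-fold lower. On fish oil the mean was 4.58 ± 1.69 (SD, n = 11) and the difference from control -3.67 ± 0.65, or 12.7-fold lower. Ordered from the most negative difference among 9005 genes, Tff3 was number 5 on fenofibrate and number 3 on fish oil. Without control replicates 1, 2 and 9 the differences from control were -3.82 on fenofibrate and -3.55 on fish oil. Between fenofibrate and fish oil the difference was -0.27 ± 0.62, smaller than its error, and it was 0.13 without fish oil replicate 9 and 0.02 with array weights. A level of 4 or more was reached in 8 of 12 fenofibrate arrays, 6 of 11 fish oil arrays and all 10 control arrays, so the means on both diets lie near the filter level and the fold change depends on how the background was modelled there.

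**Figure D1:**
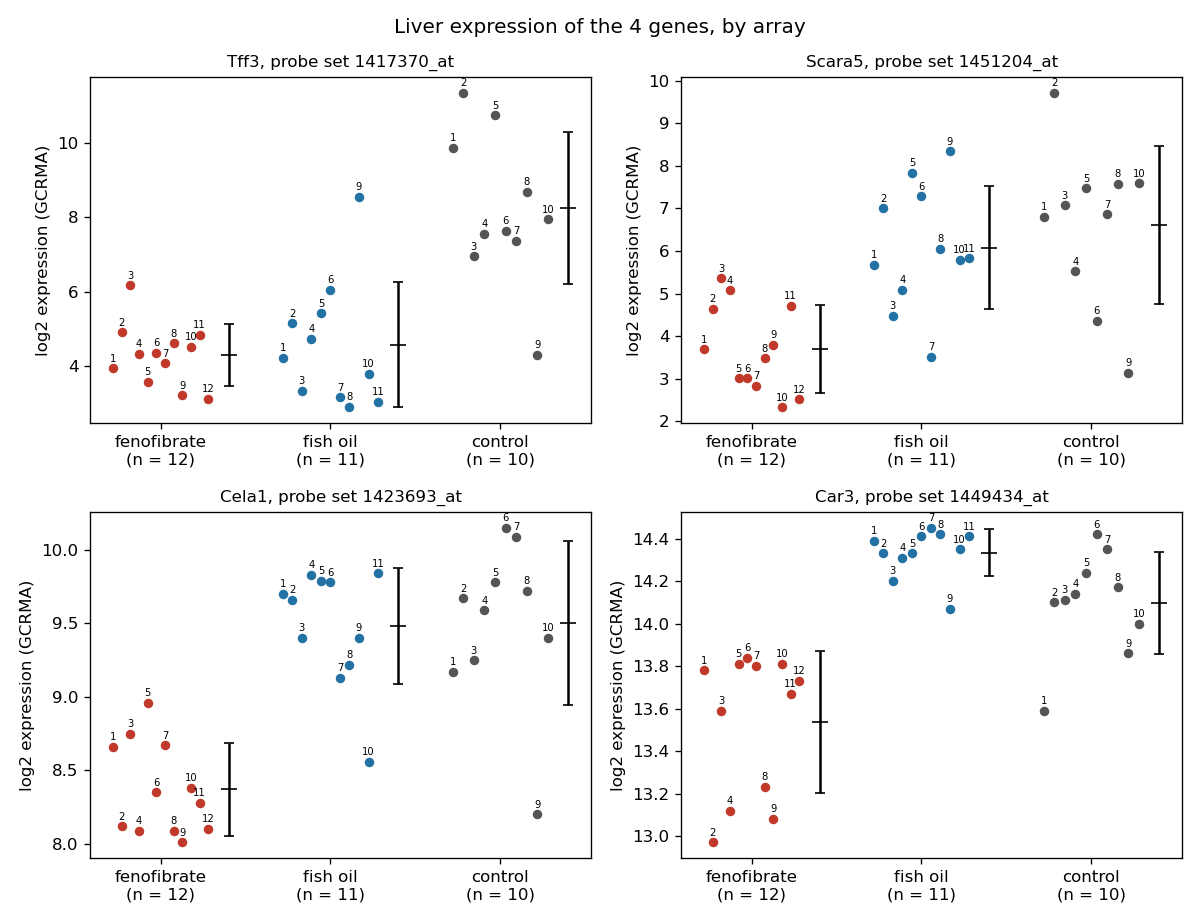
Log2 expression level of Tff3, Scara5, Cela1 and Car3 on every array, by diet (12 fenofibrate, 11 fish oil and 10 control arrays). Each point is 1 mouse with its replicate number, and the bars are the mean ± SD. Control replicate 9 is the lowest control for Tff3, Scara5 and Cela1, at 4.30, 3.14 and 8.20, and fish oil replicate 9 is the highest of its diet for Tff3 and Scara5, at 8.55 and 8.34.

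Scara5, the ferritin-binding scavenger receptor, was lower on fenofibrate. Its level was lowest at 2.33, median 3.58 and highest at 5.36 on fenofibrate. On fish oil it ran between 3.52 and 8.34, with a median of 5.83, and on the control diet between 3.14 and 9.71, with a median of 6.97. Of 10 controls, 8 lay above every fenofibrate array, and the others were replicate 9 at 3.14 and replicate 6 at 4.36. The mean was 3.71 ± 1.03 on fenofibrate and 6.61 ± 1.85 on control, a difference of -2.90 ± 0.59 or 7.47-fold lower, number 8 of 9005. On fish oil, with a mean of 6.08 ± 1.45, the difference from control was -0.53 ± 0.61, within its error. That value was -0.91 without control replicate 9, -0.18 without control replicate 2 and -0.55 without control replicates 1, 2 and 9, while the fenofibrate difference was -2.93 without these 3. Between fenofibrate and fish oil the difference was -2.38 ± 0.58, and 8 of 11 fish oil arrays lay above every fenofibrate array. The second Scara5 probe set, 1431336_at, stayed near 2 on all arrays (means of 1.95, 2.07 and 2.11 on fenofibrate, fish oil and control) and did not pass the filter, so the result rests on probe set 1451204_at.

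Cela1, the elastase, moved less but at a clearly measured level. It was lowest at 8.01, median 8.32 and highest at 8.96 on fenofibrate. On fish oil it was lowest at 8.56, median 9.66 and highest at 9.84, and on the control diet lowest at 8.20, median 9.63 and highest at 10.15. All but one of the controls, replicate 9 at 8.20, lay above every fenofibrate array, and the next control was at 9.17. Of 11 fish oil arrays, 10 lay above every fenofibrate array, with replicate 10 at 8.56 as the exception. The mean was 8.37 ± 0.32 on fenofibrate and 9.50 ± 0.56 on control, a difference of -1.13 ± 0.18 or 2.19-fold lower, and -1.34 without control replicates 1, 2 and 9. With fish oil at 9.48 ± 0.40, the difference from control was -0.02 ± 0.18. Ordered from the most negative difference among 9005 genes, Cela1 was number 80 on fenofibrate and 3603 on fish oil.

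Car3, the carbonic anhydrase, was read near the top of the scale, lower on fenofibrate and slightly higher on fish oil. Its brightest probe set, 1449434_at, was lowest at 12.97, median 13.70 and highest at 13.84 on fenofibrate. On fish oil it ran between 14.07 and 14.45 with a median of 14.35, and on control between 13.59 and 14.42 with a median of 14.12. All fish oil arrays lay above all fenofibrate arrays, the only pair of diets among the 4 genes without overlap. Over all genes, 2.25% were lower on fenofibrate than on fish oil without overlap. The mean was 13.54 ± 0.33 on fenofibrate, 14.33 ± 0.11 on fish oil and 14.10 ± 0.24 on control. The difference from control was -0.56 ± 0.10 (1.48-fold lower) on fenofibrate and 0.24 ± 0.11 (1.18-fold higher) on fish oil, and fenofibrate lay 0.80 ± 0.10 below fish oil (1.74-fold). Without control replicates 1, 2 and 9 the differences from control were -0.67 on fenofibrate and 0.13 on fish oil, the fish oil one smaller by over 1.5 times. By the same order among 9005 genes, Car3 was number 353 on fenofibrate and 8181 on fish oil. With the highest value in the whole table at 15.6, differences of its brightest probe set may be compressed.

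Car3 has 3 more probe sets, and fenofibrate had the lowest mean on all of them. Probe set 1460256_at averaged 11.97 ± 0.54 on fenofibrate, 13.52 ± 0.22 on fish oil and 13.01 ± 0.45 on control. Its differences from control, -1.04 ± 0.17 on fenofibrate and 0.51 ± 0.18 on fish oil, were over 1.5 times as large as those of the brightest one. The 2 dimmer probe sets, 1430584_s_at and 1453588_at, were made from the same source transcript and gave -1.19 ± 0.68 and -1.17 ± 0.72 for fenofibrate against control, with large errors. The spread of the controls lay mainly in 1 array, as control replicate 1 was at 2.67 and 2.24 on these probe sets, where the next control was at 6.35 and 7.53. The same array was also the lowest control on both bright probe sets, at 13.59 and 12.11, but much closer to the others. On fish oil, the dimmer probe sets lay 0.69 ± 0.69 and 0.68 ± 0.73 above control. Without control replicate 1 the fish oil differences of 1430584_s_at and 1453588_at were 0.02 and -0.09, so their distance above control rests on that array. The fenofibrate differences were then -1.86 and -1.95, over 1.5 times as large. On 1460256_at the differences without it were -1.14 on fenofibrate and 0.41 on fish oil, and on the brightest probe set -0.62 and 0.18.

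**Figure D2:**
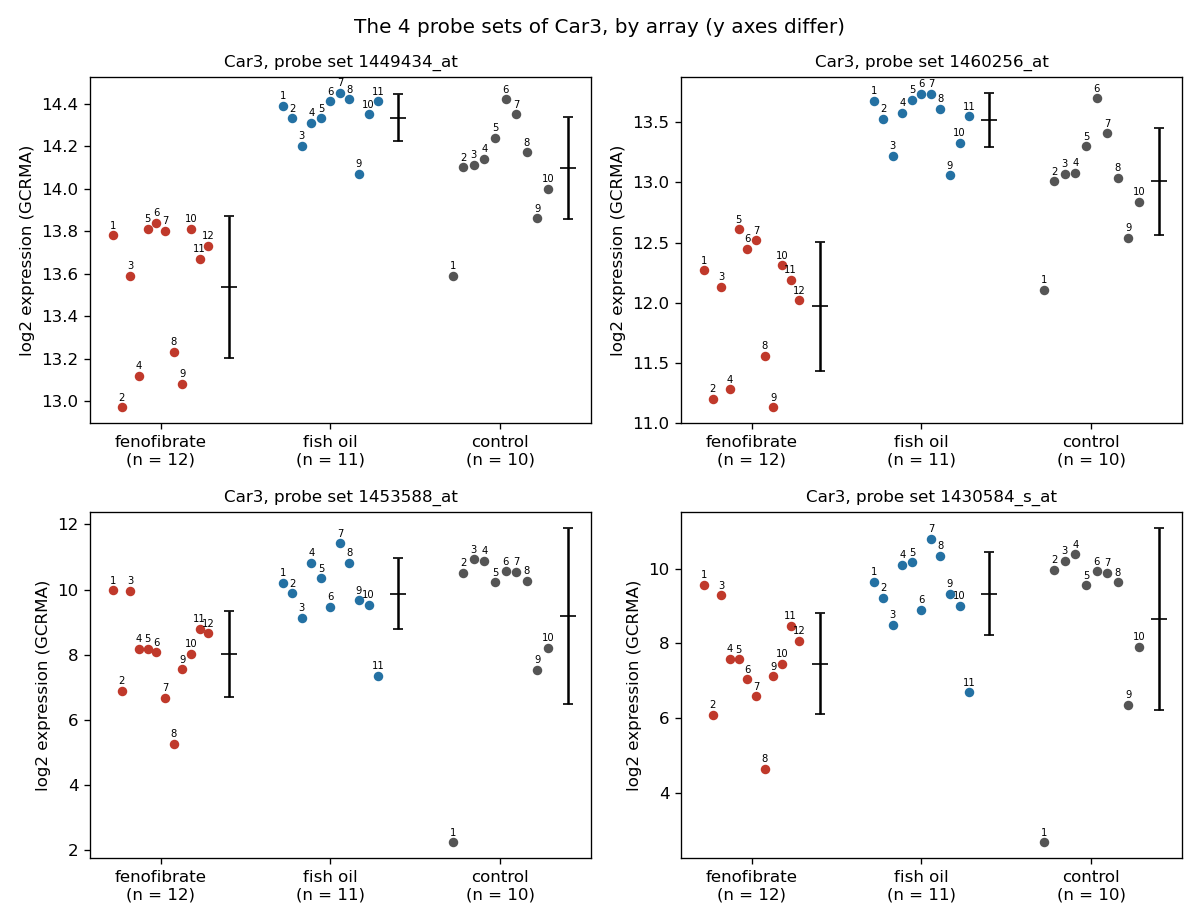
Log2 expression level of the 4 Car3 probe sets on every array, by diet. Points are arrays with their replicate number, and bars are mean ± SD. Fenofibrate has the lowest mean on each probe set, and control replicate 1 lies at 2.67 and 2.24 on the 2 dimmer ones, where the fish oil differences are 0.02 and -0.09 without that array.

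On the probe sets that stand for the genes, the spread within a diet was wider for Tff3 and Scara5 than for Cela1 and Car3. Among 9005 genes ordered from the largest SD, Tff3 was number 52 on fenofibrate, 8 on fish oil and 7 on control, and Scara5 was number 29, 15 and 14. The median SD of all genes was 0.19, 0.19 and 0.21 on the same diets. Cela1 was number 1231, 714 and 429, and Car3 number 1046, 7492 and 3523. The ranks of Car3 are those of its brightest probe set. The other 3 probe sets had SDs of 0.54, 0.22 and 0.45 (1460256_at), 1.35, 1.12 and 2.44 (1430584_s_at) and 1.33, 1.08 and 2.70 (1453588_at) on fenofibrate, fish oil and control, and without control replicate 1 the control SDs of the 2 dimmer ones were 1.32 and 1.22.

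Values within a diet were spread out or had 1 array apart, rather than falling into 2 even clusters. The measure was the widest gap between neighbouring arrays as a share of the range of the group. For Tff3 it was 41.6% on fenofibrate, 44.2% on fish oil and 37.6% on control, and each of these gaps set off a single array, replicate 3 at 6.17 on fenofibrate, replicate 9 at 8.55 on fish oil and replicate 9 at 4.30 on control. For Scara5 it was 28.3%, 19.8% and 32.3%, against medians over all genes of 28.4%, 29.9% and 32.6%. For Cela1 on control the gap was 49.7%, between replicate 9 and the other arrays. Car3 on fenofibrate came nearest to a split, with replicates 2, 4, 8 and 9 at 12.97 to 13.23 and the other 8 arrays at 13.59 to 13.84, a gap of 41.8% of the range. The same 4 arrays were the lowest on probe set 1460256_at. Replicates 2, 8 and 9 of these also had the lowest medians of male-biased liver genes on fenofibrate, 1.11, 1.23 and 1.09 below the control mean, while replicate 4 lay 0.48 below it.

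**Figure D3:**
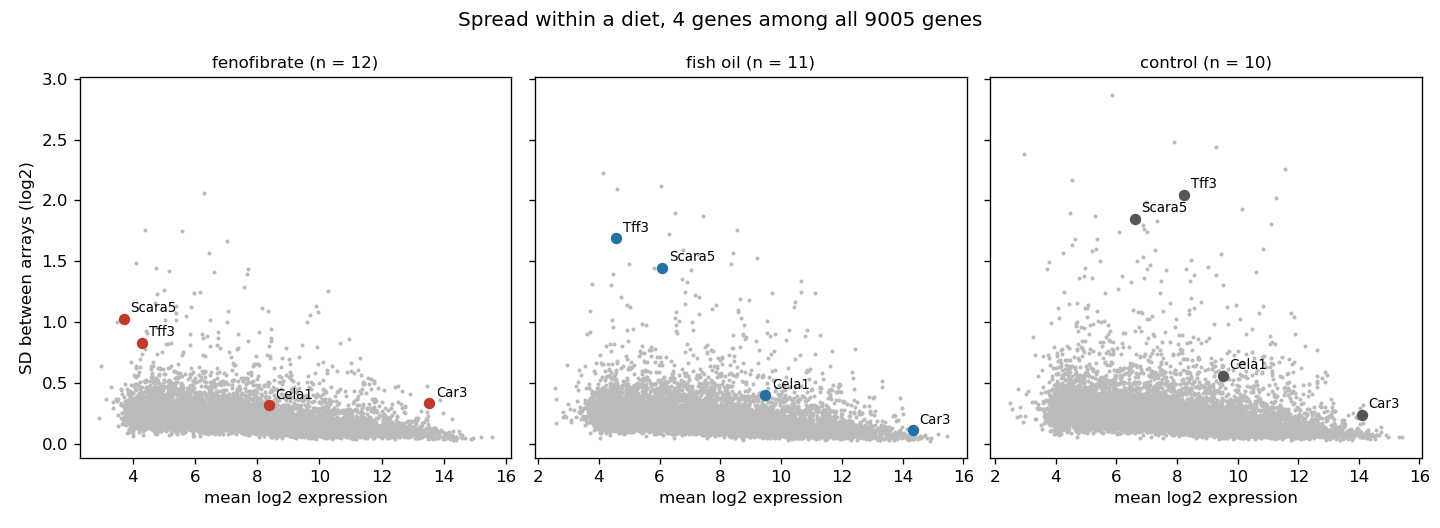
Within-diet SD between arrays (log2) against mean log2 level for 9005 genes, 1 panel a diet, with Tff3, Scara5, Cela1 and Car3 marked in colour. Tff3 and Scara5 lie far above the median SD of 0.19 on fenofibrate, 0.19 on fish oil and 0.21 on control, while the brightest Car3 probe set on fish oil, at 0.11, lies below it.

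Whether the genes vary together from mouse to mouse was tested within each diet, which the choice of the genes did not use. There were 18 relations, 6 pairs of genes in 3 diets, by two-sided permutation tests with Benjamini-Hochberg adjustment over the 18. Tff3 and Scara5 had a Pearson r of 0.62 on fenofibrate (n = 12, permutation p = 0.0272, adjusted p = 0.0981), 0.78 on fish oil (n = 11, permutation p = 0.00352, adjusted p = 0.058) and 0.80 on control (n = 10, permutation p = 0.00645, adjusted p = 0.058). Spearman's rho was 0.48, 0.63 and 0.64 (permutation, adjusted p = 0.314, 0.163 and 0.163). None of these passed the adjusted threshold of 0.05. Without the 2 arrays farthest from the Tff3 median, r was 0.30 on fenofibrate, 0.64 on fish oil and 0.36 on control, so on fenofibrate and control the relation rests on those arrays. Mice of one cage may not be independent, and cage mates could not be identified from the labels.

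For Cela1 and Car3, Pearson's r was positive on 2 of the 3 diets without passing the adjusted threshold. It was 0.67 on fenofibrate (n = 12, permutation p = 0.0194, adjusted p = 0.0875) and 0.75 on control (n = 10, permutation p = 0.0193, adjusted p = 0.0875). On fish oil it was 0.02. By Spearman's rho the control relation was 0.93 (permutation, adjusted p = 0.00576), the single one of the 18 past the threshold by either measure, and it was 0.64 on fenofibrate. Without the 2 arrays farthest from the Cela1 median, r was 0.73 on fenofibrate and 0.82 on control. Over means of mice with neighbouring label numbers it was 0.35 on fenofibrate (n = 6, exact permutation, adjusted p = 0.756). The most negative relations were those of Tff3 and Car3 on fish oil, with an r of -0.66 (n = 11, permutation, adjusted p = 0.113), and of Scara5 and Car3 on fenofibrate, with -0.55 (n = 12, permutation, adjusted p = 0.173). Spearman's rho was -0.61 and -0.69 for these, and without the 2 farthest arrays r was -0.32 and -0.60.

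**Figure D4:**
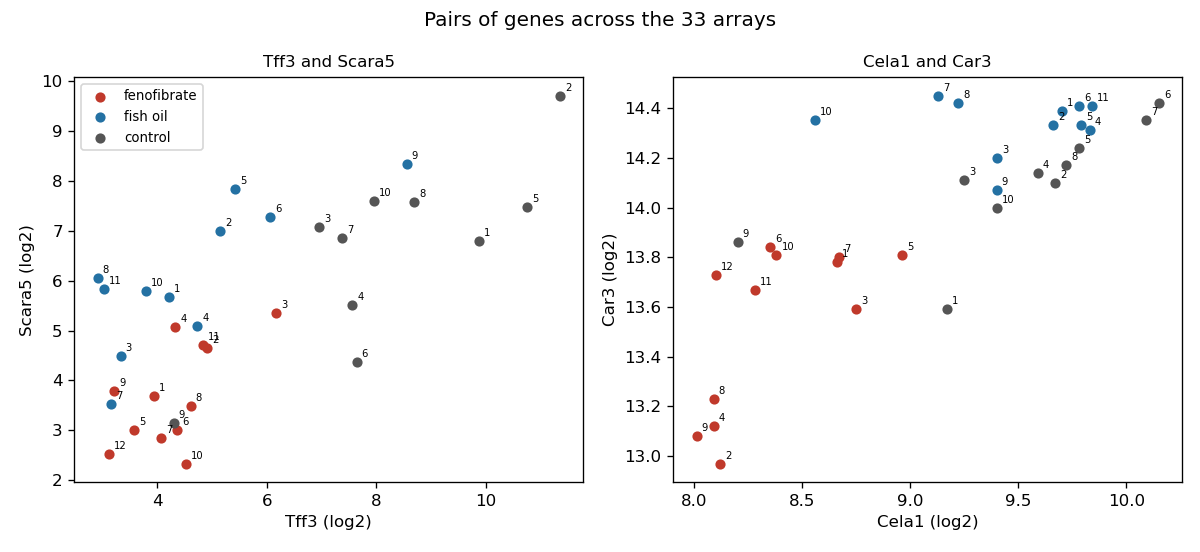
Scara5 level against Tff3 level, and Car3 level against Cela1 level (log2), each point being 1 array with its replicate number and colour by diet. Within a diet, Tff3 and Scara5 have an r of 0.62, 0.78 and 0.80 on fenofibrate, fish oil and control, and Cela1 and Car3 have 0.67, 0.02 and 0.75.

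The genes most like Tff3 were found from the correlation of deviations from the diet mean over the 33 arrays, which is given as a description. They were Cobl (r = 0.84), an actin nucleator, Tnfrsf1a (0.82), the main receptor of tumour necrosis factor, Tifa (0.79), an adaptor of NF-κB signalling, Rrbp1 (0.79), a ribosome-binding protein of the endoplasmic reticulum, and Nfkbib (0.78), an inhibitor of NF-κB. The most opposite were Kif16b (-0.86), an endosomal kinesin, Bdh1 (-0.82), a ketone body enzyme, and Spc25 (-0.81), a kinetochore protein. On fenofibrate alone, r with Tff3 was 0.76 for Cobl, 0.30 for Tnfrsf1a, 0.38 for Tifa, 0.06 for Rrbp1 and 0.12 for Nfkbib. These 5 genes had 0.77 to 0.92 on fish oil and 0.87 to 0.96 on control. Kif16b, Bdh1 and Spc25 had -0.65, -0.31 and -0.60 on fenofibrate. Cobl also differed between diets: it averaged 5.99 ± 0.42 on fenofibrate, 6.12 ± 0.54 on fish oil and 7.07 ± 0.68 on control. It fell by 1.08 ± 0.22 on fenofibrate (adjusted p = 0.00022, limma) and by 0.96 ± 0.23 on fish oil (adjusted p = 0.00379), and both calls held in all 44 alternatives run. Tnfrsf1a was at 8.93 ± 0.14, 8.93 ± 0.25 and 9.07 ± 0.41 on fenofibrate, fish oil and control, with no call on either diet. Tff3 and Scara5 shared an r of 0.76 by this measure, and Cobl was also the nearest gene to Scara5 (0.77).

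After Cobl and Tff3, the genes nearest to Scara5 were Smo (0.75), the Hedgehog signal transducer, 2310033P09Rik (0.73) and Cadm4 (0.69), a cell adhesion molecule. The most opposite were Cyp2c38 (-0.75), a cytochrome P450, Kif16b (-0.75) and Mgst3 (-0.74), a microsomal glutathione transferase. On fenofibrate alone, r with Scara5 was 0.44 to 0.64 for Cobl, Tff3, Smo, 2310033P09Rik and Cadm4. It was -0.55 for Cyp2c38, -0.71 for Kif16b and -0.09 for Mgst3 there. Cadm4 was lower on fenofibrate as Scara5 was: it fell by 1.04 ± 0.25 on fenofibrate (adjusted p = 0.00122) and lay 0.07 ± 0.26 above control on fish oil (adjusted p = 0.905). Smo, nearer to Scara5, was not lower on fenofibrate: it differed from control by 0.35 ± 0.15 there (adjusted p = 0.0712, limma). On fish oil Smo differed by -0.08 ± 0.16 (adjusted p = 0.795).

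The genes nearest to Cela1 were Ap3b1 (0.82), an adaptor of vesicle traffic, 1300017J02Rik (0.75), Alas2 (0.73), the erythroid enzyme that starts haem synthesis, Hsd3b5 (0.73), a hydroxysteroid dehydrogenase made mainly in male mouse liver, and Gjb1 (0.72), the hepatocyte gap junction protein. The most opposite were Cyp2b9 (-0.75), a cytochrome P450 made mainly in female mouse liver, Idh3a (-0.74), a subunit of the isocitrate dehydrogenase of the citric acid cycle, and Tmc6 (-0.71). Hsd3b5 and Cyp2b9 also differed between diets, with Hsd3b5 at 4.38 ± 1.75, 12.32 ± 0.59 and 11.57 ± 2.26 and Cyp2b9 at 10.28 ± 1.25, 4.13 ± 2.22 and 2.95 ± 2.38 on fenofibrate, fish oil and control. Not all of these genes did: on fenofibrate, Ap3b1 differed from control by -0.03 ± 0.06 (adjusted p = 0.748, limma), Idh3a by -0.04 and Tmc6 by 0.11. For Alas2, 1300017J02Rik and Gjb1 this difference was -1.04, -0.50 and -0.25. On fenofibrate alone, r with Cela1 was 0.76 for Ap3b1, 0.58 for Hsd3b5 and -0.41 for Cyp2b9. Control replicate 9, the lowest Cela1 control, was the lowest control for Hsd3b5 (5.34) and the highest for Cyp2b9 (9.69).

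The genes nearest to Car3 were Cyp2c54 (0.86) and Cyp2c50 (0.80), cytochromes P450 whose probe sets may bind transcripts of relatives, Cwf19l1 (0.76), Sult2a8 (0.75), a sulphotransferase of liver, and Hsd3b2 (0.71), a hydroxysteroid dehydrogenase. The most opposite were Tmed4 (-0.76), a cargo protein of early secretory vesicles, Tbrg1 (-0.71) and Nnmt (-0.68), nicotinamide N-methyltransferase. Cyp2c54 fell by 2.65 ± 0.27 on fenofibrate (adjusted p = 1.67e-09) and was 0.72 ± 0.28 higher on fish oil without passing the test (adjusted p = 0.084). Cyp2c50 fell by 1.44 ± 0.13 on fenofibrate (adjusted p = 1.27e-10) and rose by 0.44 ± 0.14 on fish oil (adjusted p = 0.0256), a call that ended when control replicate 1 was left out (adjusted p = 0.0536) or control replicates 1, 2 and 9 were (adjusted p = 0.162), and with neighbouring label numbers as a random block (adjusted p = 0.0625).

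**Figure D5:**
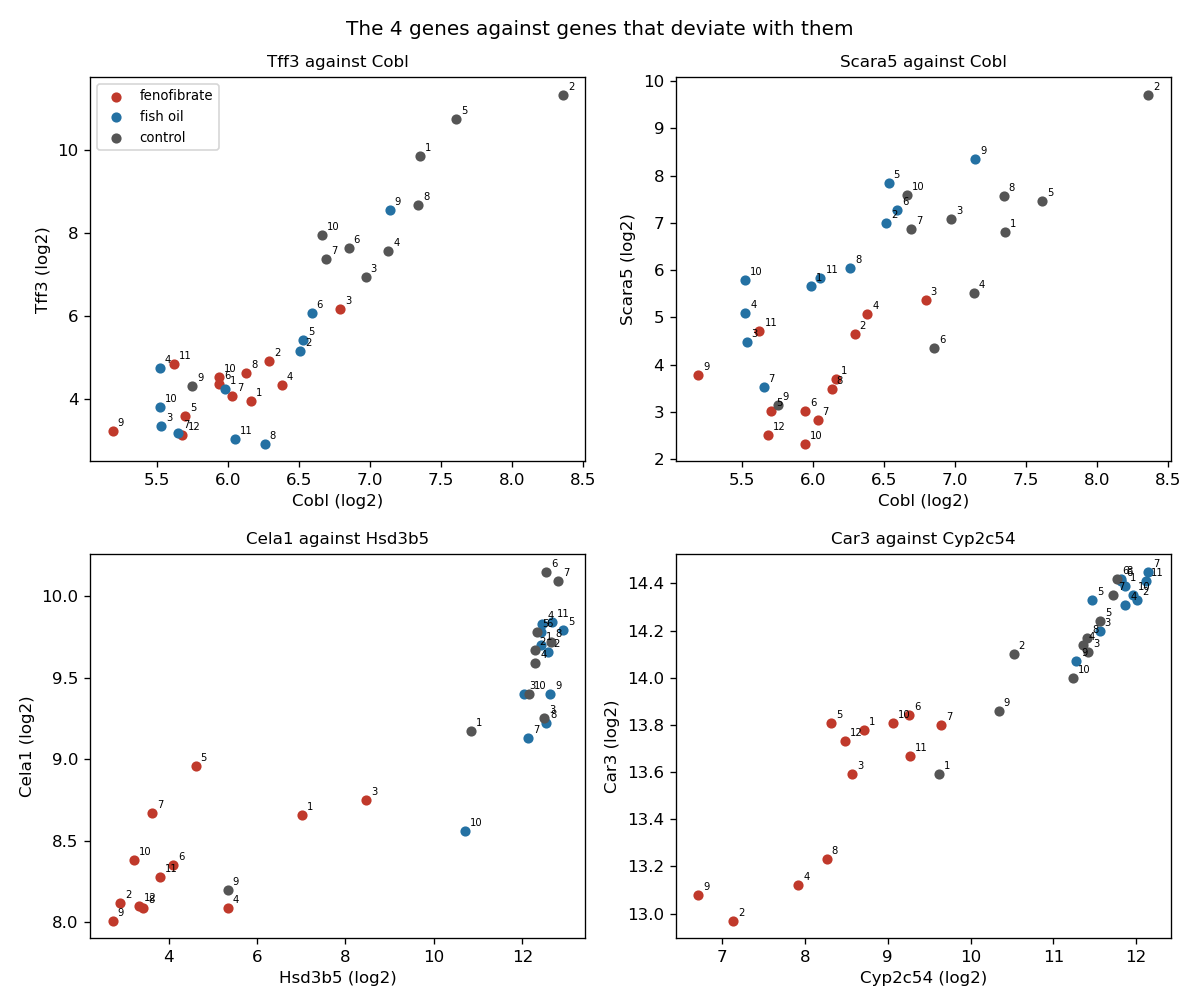
Tff3 and Scara5 against Cobl, Cela1 against Hsd3b5, and Car3 against Cyp2c54 (log2 levels), each point being 1 array with its replicate number and colour by diet. Correlations of deviations from the diet mean over the 33 arrays are 0.84, 0.77, 0.73 and 0.86, and control replicates 9 and 1 lie at low Hsd3b5 and at low Cyp2c54.

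The other genes of each pathway were tested in the same fit, in which 40.8% of 9005 genes changed on fenofibrate (1978 rose and 1698, or 18.9%, fell) and 14.5% on fish oil (678 rose and 630, or 7.0%, fell). Beside Car3, 8 genes of carbonic anhydrases and bicarbonate transport were measured. On fenofibrate 4 of the 8 fell and 2 rose, and their median difference was -0.28 against 0.00 over all genes. Without control replicates 1, 2 and 9, 5 fell and 2 rose on fenofibrate. On fish oil 1 fell and 2 rose, with a median of 0.20 against 0.01, and 3 rose without control replicates 1, 2 and 9. The fish oil call of Slc26a1, an anion exchanger and the gene that fell (adjusted p = 0.0428), was lost in 17 of 44 alternatives, with the random block among them (adjusted p = 0.102). Car14, a membrane-bound carbonic anhydrase, had the order of Car3: it averaged 7.16 ± 0.33 on fenofibrate, 8.80 ± 0.28 on fish oil and 7.98 ± 0.41 on control. It fell by 0.82 ± 0.14 on fenofibrate (adjusted p = 1.79e-05) and rose by 0.82 ± 0.14 on fish oil (adjusted p = 0.000107). Car1, a cytosolic enzyme, fell by 0.62 ± 0.16 and rose by 0.69 ± 0.16 on the same diets (adjusted p = 0.00166 and 0.00273), at the low levels of 3.52 ± 0.37, 4.83 ± 0.32 and 4.14 ± 0.44. Car2, a fast cytosolic enzyme, went the other way on fenofibrate: it averaged 5.66 ± 0.28 there and 3.83 ± 0.30 on control, a rise of 1.84 ± 0.12 (adjusted p = 2.32e-14), and on fish oil it was 0.29 ± 0.12 above control (adjusted p = 0.101).

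Scavenger receptors of class A and of other classes were read beside Scara5, and those of other classes are not of its class A family. Of 7 measured, 1 rose and 2 fell on fenofibrate (median -0.17), and 2 fell on fish oil (median -0.02), where 40.8% and 14.5% of all genes changed. Without control replicates 1, 2 and 9, 1 rose and 1 fell on fenofibrate, and 1 rose and 2 fell on fish oil. Cd36, a fatty acid transporter of the class B family, averaged 12.52 ± 0.17 on fenofibrate and 9.20 ± 0.56 on control and rose by 3.32 ± 0.17 (adjusted p = 1.33e-16). Cd163, the haemoglobin scavenger receptor of macrophages, fell by 0.37 ± 0.13 on fenofibrate (adjusted p = 0.0209), and the call was gone without control replicates 1, 2 and 9 (adjusted p = 0.0875) and with the random block (adjusted p = 0.0524). Msr1, the founding class A receptor, lay 0.02 ± 0.16 above control on fenofibrate and 0.32 ± 0.16 below it on fish oil, and neither passed (adjusted p = 0.938 and 0.202). Stab2, a scavenger receptor of sinusoidal endothelium as Stab1 is, fell by 0.29 ± 0.05 on fenofibrate (adjusted p = 4.12e-05, limma). That call held in all 44 alternatives. The fish oil calls of Stab1 and Stab2 were lost in 16 and 25 of 44 alternatives.

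Of 17 genes of ferritin and iron uptake, the cargo side of Scara5, 3 rose and 4 fell on fenofibrate (median -0.12), and 2 rose and 2 fell on fish oil (median -0.03). The fish oil call of Tfr2, a second transferrin receptor and 1 of the 2 that rose, was lost in 4 of 44 alternatives, among them the random block (adjusted p = 0.0716) and centred arrays (adjusted p = 0.0674). Without control replicates 1, 2 and 9, 5 rose and 6 fell on fenofibrate, and 4 rose and 1 fell on fish oil. Tfrc, the transferrin receptor, rose by 0.57 ± 0.16 on fenofibrate (adjusted p = 0.00471). Slc39a14, a transporter that takes up iron not bound to transferrin, fell on both diets, by 0.67 ± 0.09 on fenofibrate (adjusted p = 5.23e-07) and by 0.34 ± 0.09 on fish oil (adjusted p = 0.0127). The fish oil call of Slc39a14 ended with the mean of its probe sets (adjusted p = 0.179) and when control replicates 1, 2 and 9 were left out (adjusted p = 0.115). Hamp2, a relative of hepcidin, was at 12.01 ± 0.34 on fenofibrate, 10.63 ± 0.73 on fish oil and 12.35 ± 0.49 on control, and fell by 1.73 ± 0.23 on fish oil (adjusted p = 1e-06). Hamp, hepcidin itself, fell by 0.43 ± 0.11 on fenofibrate (adjusted p = 0.00222), and its probe set and that of Hamp2 may share transcripts. Fth1, the ferritin heavy chain, lay 0.08 and 0.05 above control on fenofibrate and fish oil without passing the test (adjusted p = 0.066 and 0.339).

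Beside Cela1, no other elastase passed the filter, and 7 genes of protease inhibitors did: the serpins Serpina1b, Serpina1c, Serpina3n, Serpinb1a and Serpinb6b, with Pzp, an α2-macroglobulin relative, and Slpi, a small inhibitor of leukocyte proteases. Of these 7, 2 rose and 4 fell on fenofibrate (median -0.14), and 2 rose on fish oil. The fenofibrate call of Serpina3n was lost without control replicates 1, 2 and 9 (adjusted p = 0.15), which left 3 that fell. The fish oil call of Serpinb6b (adjusted p = 0.042) was lost in 19 of 44 alternatives, with the random block among them (adjusted p = 0.109). Serpina1c, an α1-antitrypsin gene, fell by 0.25 ± 0.04 on fenofibrate (adjusted p = 8.22e-06), near the top of the scale at 14.05 ± 0.08 against 14.30 ± 0.07 on control. Serpinb1a, an intracellular inhibitor of neutrophil proteases, rose on both diets, by 1.34 ± 0.29 on fenofibrate (adjusted p = 0.000308) and 1.51 ± 0.29 on fish oil (adjusted p = 0.000369). Its levels were low, at 4.75 ± 0.54, 4.92 ± 0.93 and 3.41 ± 0.56 on fenofibrate, fish oil and control. The highest control was at 4.0, so the gene passed the filter mainly through the other diets and its rise starts from background. Members of these serpin families are close relatives, so single values are uncertain. Of 19 genes of trefoil factors and mucous epithelium on the array beside Tff3, 2 passed the filter, Lgals4 and Gkn3, and limma called neither on either diet. At an unadjusted p under 0.05, Gkn3, a gastrokine, was lower on fish oil (-0.27 ± 0.11, adjusted p = 0.0899), and without control replicates 1, 2 and 9 there were 1 call on fenofibrate and 2 on fish oil.

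Male-biased liver genes, a list that holds the Hsd3b5 seen beside Cela1, were mostly lower on fenofibrate: 18 of 23 fell and 2 rose (median -0.91), and 19 fell and 1 rose without control replicates 1, 2 and 9. On fish oil 3 rose (median 0.04). Slco1a1, an organic anion transporter, fell by 2.50 ± 0.21 (adjusted p = 1.36e-11) and Mup3, a major urinary protein, by 0.54 ± 0.04 (adjusted p = 4.39e-12). Of 10 female-biased genes 5 rose and 1 fell on fenofibrate (median 0.62), and 6 rose and 1 fell without control replicates 1, 2 and 9. Per array, the median of the male-biased list lay 0.86 below the control mean in control replicate 9, while the other controls lay between -0.12 and 0.22, and the female-biased median in that array was 1.40. Fish oil replicate 10, the lowest of its diet for Cela1, had the lowest male-biased median of its diet, -0.31. On fenofibrate the male-biased medians ran from -1.23 to -0.37. The part of this list in the level of Cela1 was not tested.

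Acute phase genes, proteins that liver makes in inflammation, were high on some control and fish oil arrays high in Tff3. Their median lay 0.99 and 0.79 above the control mean in control replicates 2 and 1, where Tff3 was at 11.35 and 9.87, and the other controls lay between -0.28 and -0.03. Control replicate 5 was at -0.03 with Tff3 at 10.75. On fenofibrate the array highest in Tff3, replicate 3 at 6.17, was at -0.46, and the highest medians were 0.01 in replicate 2 and -0.12 in replicate 9, with Tff3 at 4.91 and 3.21. Fish oil replicate 9, at 8.55 for Tff3, had the highest acute phase median of its diet, 0.56, and the other fish oil arrays lay between -0.37 and -0.07. Of 25 genes 16 fell and 1 rose on fenofibrate (median -0.51), and 12 fell and 3 rose without control replicates 1, 2 and 9. On fish oil 2 fell (median -0.13), while without those controls 2 fell and 3 rose. Il1r1, the interleukin-1 receptor, fell by 1.33 ± 0.19 (adjusted p = 7.37e-07) and Itih4, a plasma protein, by 0.72 ± 0.09 (adjusted p = 9.3e-08) on fenofibrate, while Il1rn, the receptor antagonist, rose by 1.83 ± 0.23 (adjusted p = 6.82e-08). Il1rn was low, at 5.76 ± 0.43 on fenofibrate and 3.93 ± 0.80 on control, where its median of 3.53 lay below the filter level. The part of inflammation in the level of Tff3 was not tested.

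Markers of other cell types were read because each of the 4 genes is also known from another tissue. Of 19 pancreatic acinar genes on the array, 0 passed the filter and 16, among them Cpa1, Prss2 and Cel, were below 4 on every array, while Cela1 was at 8 to 10. The log2 summed level of that list ran from 6.80 to 7.79 on fenofibrate, 6.80 to 6.97 on fish oil and 6.76 to 6.99 on control. Of 15 skeletal muscle genes, 14 were below 4 on every array, with summed levels of 6.61 to 6.87, 6.56 to 6.73 and 6.51 to 6.70 on the same diets, while Car3 lay above 12.9. The 1 muscle gene past the filter rose on fenofibrate, by 0.42, and was not called on fish oil, at 0.04. Of 12 adipocyte genes, 7 were below 4 on every array, Adipoq, Retn and Lep among them. The other way round from Car3, the adipocyte sum was higher on fenofibrate, at 9.80 to 12.7, against 8.65 to 9.38 on fish oil and 8.59 to 10.34 on control, and the 4 adipocyte genes past the filter all rose, Fabp4 by 1.28 ± 0.30 (adjusted p = 0.00085). Of 13 cholangiocyte genes, 9 were below 4 on every array, Krt7, Krt19 and Epcam among them, and the sum ran from 9.08 to 10.14 on fenofibrate, 7.74 to 9.00 on fish oil and 7.28 to 7.6 on control. Of the 3 tested, only Krt23, a keratin, was called: it averaged 9.19 ± 0.47 on fenofibrate, 7.29 ± 1.07 on fish oil and 3.56 ± 0.34 on control, while the medians of the 3 were 0.13 and 0.07 on fenofibrate and fish oil. The part of these cell types in the levels of Tff3, Cela1 and Car3 was not tested.

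For Scara5, which is also known from fibroblasts, the list of stellate cells and fibroblasts was read. Of 14 genes measured 8 fell and 1 rose on fenofibrate (median -0.33), where 3 rose without control replicate 2, and 0 changed on fish oil by limma, where 1 had an unadjusted p under 0.05. Rgs5, a regulator of pericytes, fell by 0.57 ± 0.06 (adjusted p = 1.11e-09), Cxcl12, a chemokine, fell by 0.45 ± 0.07 (adjusted p = 7.35e-06), and Col3a1, a fibrillar collagen, rose by 0.75 ± 0.16 (adjusted p = 0.000257). The log2 summed level of the list ran from 12.76 to 13.0 on fenofibrate, 13.03 to 13.29 on fish oil and 13.1 to 13.29 on control. The part of these cells in the level of Scara5 was not tested.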

How the data were processed

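Each of 33 mice gave 1 Affymetrix mouse genome array of liver RNA, labelled from 5 µg of RNA with an integrity number above 8, per the labels' protocols. The deposited values are log2 levels per probe set from the authors' run of GCRMA (version 2.24.1 in the submitters' processing notes). This method takes the background from the base content of the probes and makes the arrays' distributions equal, so differences of dim and of the brightest probe sets may be compressed. Values ran from 0.484 to 15.6. Arrays have no depth, and their number limits the precision. No 2 arrays held identical values.

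Of 45101 probe sets, 64 are controls and were not used, 34945 carry 1 gene, 932 carry several and 9160 are not named here, and 34741 were named through gene identifiers with symbols of GRCm38.p6. A level of at least 4 in at least 10 arrays left 17162 probe sets and 9005 genes, each read from its brightest probe set (3850 genes had several). One linear model over the 3 diets (limma 3.58.1, statmod 1.5.0, R 4.3.3, two-sided, Benjamini-Hochberg over 9005 genes, adjusted p under 0.05) gave differences and SE. Covariation within a diet was tested with 100000 permutations. The limma p-values set a difference against the spread between these mice, and those of the permutations set a relation against shuffled arrays of a diet. Both take the mice as independent outside the block alternatives. The code of the limma fit was tested on simulated data.

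The 4 genes and all gene lists were chosen with earlier results of these data known. Named genes are the 4 genes, the 5 nearest and 3 most opposite genes of each, and from each list up to 4 genes with the smallest adjusted p, plus Hsd3b5, Cyp2b9, Tfrc, Fth1 and Hamp. Car1, Msr1, Stab1, Stab2, Col3a1, Serpinb1a, Fabp4, Lgals4, Gkn3 and others were added after their values were seen. Replicate numbers did not pair mice: over 30 pairs of the same number, deviations from the diet mean correlated from -0.206 to 0.354, with 11 above 0.1. Their median was 0.041. Over 16 pairs of consecutive label numbers on one diet the correlations ran from -0.172 to 0.418, with a median of 0.141 and 8 above 0.1. The random block estimated a shared correlation of 0.23 for such neighbours. Alternatives were another filter, scaling, probe set rule, variance model, array weights, blocks, 2 diets alone, and arrays left out.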

Additional observations from a re-analysis of the deposited data

Results flagged for a closer look

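In the 10 control arrays, 20 of 91 genes or probe sets read had 1 array far from the others. The measure was a gap to its nearest neighbour above Dixon's critical value for 10 samples, which chance alone exceeds in about 1 in 20 groups. Among the 91 are genes picked for varying with the 4 genes over these same arrays. Such genes can share an outlying control through that choice, so the count cannot be set against the chance rate. The fenofibrate and fish oil groups, with 12 and 11 arrays, are too large for this check. Of the 4 genes, Cela1 was at 8.20 in control replicate 9, with the next control at 9.17. The 2 dimmer Car3 probe sets were at 2.67 and 2.24 in control replicate 1, with the next controls at 6.35 and 7.53.

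Control replicate 9 also stood apart for genes picked for varying with Cela1 or Scara5 on these arrays. Ap3b1 was at 8.06, Gjb1 at 12.06, Hsd3b5 at 5.34, 2310033P09Rik at 4.69 and, on the high side, Cyp2b9 at 9.69. It was low for the male-biased Slco1a1, Serpina12 and C8b, at 10.29, 10.21 and 10.54, and high for Cd36 and Fth1, at 10.53 and 14.44. Control replicate 1 was low for genes picked for varying with Car3, with Cyp2c50 at 12.04 and Hsd3b2 at 5.90. It was also low for Car5a, a mitochondrial carbonic anhydrase, at 8.22. Control replicate 2, the array with the most Tff3 and Scara5, was low for Mgst3 (5.46) and high for Col3a1 (9.44). Control replicate 3 was low for the α1-antitrypsin genes Serpina1b and Serpina1c, at 14.43 and 14.13, with narrow gaps near the top of the scale.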

How the results depend on the processing

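Tff3, Scara5 and Cela1 were lower on fenofibrate under all 44 alternatives, and Car3 too, and leaving out 1 array at a time gave -4.38 to -3.59, -3.29 to -2.56, -1.28 to -1.06 and -0.62 to -0.51. On fish oil against control these ranges were -4.10 to -3.32 for Tff3, -0.91 to -0.18 for Scara5, -0.17 to 0.07 for Cela1 and 0.18 to 0.27 for Car3. Between fenofibrate and fish oil they were -0.44 to 0.13 for Tff3, -2.63 to -2.15 for Scara5, -1.20 to -1.07 for Cela1 and -0.83 to -0.75 for Car3. With the mean of its probe sets, Car3 was at -0.99 on fenofibrate and 0.53 on fish oil against control, and at -1.52 between fenofibrate and fish oil, as the dimmer probe sets entered. The counts of changed genes were 3676, 1308 and 3507 for fenofibrate against control, fish oil against control and fenofibrate against fish oil, and 3495 to 3794, 1099 to 1554 and 3319 to 3620 with 1 array left out. With the replicate number as a block the counts were 3574, 1318 and 3467, and no difference of the 4 genes changed direction. With neighbouring label numbers taken as a random block, fish oil against control had 845 changed genes. In the gene lists around the 4 genes, 27 genes changed on fish oil, against 47 with array weights, 17 with that random block and 42 without control replicates 1, 2 and 9. These totals include lists not described above, such as 15 circadian clock genes. Of these 0 were called on fish oil, while 2 rose and 4 fell without control replicates 1, 2 and 9. Of the 18 relations 0 passed the threshold by Pearson's r and 1 by Spearman's rho, and that of Cela1 and Car3 on fish oil, 0.02, was -0.15 by rho and -0.11 over means of neighbouring label numbers. The cause of these shifts was not tested. Tff3 and Scara5 lie near the filter level on fenofibrate, which limits their fold changes.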

Other observations

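Means of mice with neighbouring array label numbers on the same diet showed the relation of Tff3 and Scara5 at an r of 0.91 on fenofibrate and 0.91 on fish oil (n = 6 each, exact permutation, adjusted p = 0.117 and 0.1). For Cela1 and Car3 it was 0.35 on fenofibrate and -0.11 on fish oil (adjusted p = 0.756 and 0.938). Single mice with neighbouring numbers differed by a median of 1.14 in Tff3 (16 pairs), against 1.22 between other mice of the same diet (150 pairs). For Scara5 these medians were 1.14 and 1.36, for Cela1 0.40 and 0.38, and for Car3 0.12 and 0.16.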
